A study of Mus musculus with 12 samples.

Results

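The values below concern 10 genes that are widely used as markers of astrocytes, *Slc1a2*, *Slc1a3*, *Aqp4*, *Gfap*, *Aldh1l1*, *Gja1*, *Gjb6*, *Glul*, *Aldoc* and *S100b*, among the 20504 genes of a table of counts on coding sequence (CDS) and the 23352 genes of a table of counts on exons. They were named as a list, and no measured value enters that rule, although the list was chosen with earlier results of these data known. Exon counts were used for the RiboTag immunoprecipitation (IP) and CDS counts for translation efficiency (TE, ribosome footprints over RNA-Seq) and for the response to the drug. All 10 genes were in both tables and passed the filter on low counts in every comparison.

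The samples came from the brain (in mice A to D the right frontal lobe) of 6 adult Camk2a-RiboTag mice that were 3 months old. All of the mice, controls included, carry a Cre recombinase driven by the Camk2a promoter, which switches on an HA-tagged ribosomal protein Rpl22 in excitatory forebrain neurons. Mice A and B received vehicle by oral gavage (the sample labels call them untreated), mice C and D were given 100 mg/kg of AZD-8055, which inhibits the kinase mTOR by competing with ATP, and tissue was taken 1 h later. Each of these mice gave a ribosome footprint library and a poly(A) RNA-Seq library from one homogenate. Mice E and F were taken as controls, with no gavage recorded. Each gave RNA-Seq libraries of the homogenate (input) and of polysomes pulled down with an antibody against HA (IP). Each group thus held 2 mice. An SD below is the spread between 2 animals, while the SEs, intervals and p-values of edgeR also draw on the spread of other genes. Such an SE can therefore be smaller than 2 animals alone would give.

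Astrocytes are glial cells that clear glutamate from synapses, return it to neurons as glutamine, buffer water and potassium around vessels, and share small molecules through gap junctions. *Slc1a2* and *Slc1a3* encode the glutamate transporters GLT-1 and GLAST, and *Glul* encodes glutamine synthetase. *Aqp4* encodes the water channel of astrocyte endfeet, and *Gja1* and *Gjb6* encode the gap junction proteins connexin 43 and connexin 30. *Gfap* encodes an intermediate filament protein, *S100b* a calcium-binding protein, *Aldoc* the brain form of the glycolytic enzyme aldolase, and *Aldh1l1* an enzyme of folate metabolism. In mm10 (RefSeq annotation of GRCm38.p6) *Slc1a2* spans positions 102658239 to 102790784 of chromosome 2, *Slc1a3* 8634124 to 8710807 of chromosome 15, and *Aqp4* 15389394 to 15410982 of chromosome 18. *Gfap* lies at 102887336 to 102897200 and *Aldoc* at 78323073 to 78327781 of chromosome 11, *Gja1* at 56377300 to 56390419 and *S100b* at 76253836 to 76261319 of chromosome 10, *Gjb6* at 57123301 to 57133611 of chromosome 14, *Glul* at 153899929 to 153909723 of chromosome 1, and *Aldh1l1* at 90550768 to 90599171 of chromosome 6. No other gene of the exon table overlaps any of the 10. Annotated genes that are not in that table do overlap some of them, long noncoding RNA genes for *Slc1a2*, *Aqp4* and *Aldh1l1* and a microRNA gene for *Glul*. Whether their reads entered the counts of the markers was not tested.

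The RNA-Seq libraries held 9309496 to 15585831 counts on CDS and the footprint libraries 3503873 to 9259938. *Slc1a2* nevertheless had more counts in every footprint library (9679 to 22396) than in the RNA-Seq libraries of the same mice (1948 to 2613), and so did *Aqp4* (323 to 894 against 220 to 261). Libraries of one group differed by more than counting error in all 6 groups (chi-square per degree of freedom 2.61 to 17.4). In the exon table the summed level of the 10 markers in CPM (counts scaled to the same library total) was 6949 for input E, 6951 for input F, 915 for IP E and 1021 for IP F, while that of 10 excitatory neuron markers was 8991, 8389, 14400 and 13515 in the same order. The markers were therefore present in the homogenate of both mice and low, but above 0, in the IP. In bulk tissue, fewer cells of a type and less RNA per cell cannot be told apart.

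The first comparison asked how far the astrocyte markers were depleted when the polysomes of excitatory neurons were pulled down. All 10 markers were lower in the IP than in the input. The decrease ran from 20.8-fold for *Slc1a3* to 1.78-fold for *S100b*, and 8 of the 10 passed both criteria for a call, an adjusted p under 0.05 and a change of over 2-fold (edgeR quasi-likelihood F-test, Benjamini-Hochberg adjustment). Of all 13254 genes tested, 21.8% were called lower by these criteria, and 35.7% were lower by the adjusted p alone, which all 10 markers passed. The median log2 change was −2.80 for the markers and −0.03 for all genes. *Aldh1l1* and *S100b* were the 2 that fell by less than 2-fold, although scaling by total counts, which moved the median of all genes by −0.28, took them to −1.23 and −1.11.

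Among the transporters, the normalized exon count of *Slc1a3* was 12468 in input E, 11797 in input F, and 581 and 684 in the IPs of the same mice. The levels of input and IP lay far apart in both animals. The log2 change was −4.38 (SE 0.12, adjusted p = 4.86e-05, edgeR quasi-likelihood F-test, Benjamini-Hochberg adjustment), and only 0.226% of all genes had a lower value. *Slc1a2* had 64427 and 69035 normalized exon counts in the inputs and 13547 and 15383 in the IPs. It fell by 2.32 on the log2 scale (SE 0.10), less than its family member in both mice. *Glul*, with 35087 and 30403 normalized exon counts in the inputs against 5154 and 4880 in the IPs, fell by 2.82 (SE 0.11).

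The genes of endfeet and gap junctions were also strongly depleted. *Aqp4* had 2220 and 2247 normalized exon counts in the inputs and 145 and 235 in the IPs. The decrease was 15.3-fold in mouse E and 9.55-fold in mouse F, which made *Aqp4* the marker with the widest spread between the mice (SD 0.48 on the log2 scale). *Gja1* went from 3997 and 3424 to 285 and 338, and *Gjb6* from 1336 and 929 to 210 and 158. Their log2 changes were −3.69 (SE 0.14) and −2.74 (SE 0.23). Both connexins were lower in each IP than in either input.

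Of the remaining genes, one pair was strongly and the other weakly depleted. *Gfap* went from 2080 and 1860 normalized exon counts before the pull-down to 266 and 264 after it (log2 change −3.01, SE 0.12), and *Aldoc* from 13262 and 13522 to 1964 and 2248 (log2 change −2.79, SE 0.10). The other pair kept a much larger part of its input level. *S100b* had 1952 and 2012 normalized exon counts in the inputs and 1176 and 1238 in the IPs, so that the IPs held 60.2% and 61.5% of the input level. *Aldh1l1* went from 1307 and 1176 in the inputs to 644 and 745, so that the IPs held 49.3% and 63.3% of the input level. For comparison, the IPs held 4.66% and 5.79% of the input level of *Slc1a3*. The log2 changes of *S100b* and *Aldh1l1* were −0.83 (SE 0.09, 95% interval −1.06 to −0.61) and −0.95 (SE 0.12, 95% interval −1.25 to −0.66), which lie above the intervals of the other 8 markers.

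In the order of the per-mouse log2 enrichments, 4 of the 9 pairs of neighbours overlapped between the mice. *Aqp4* did not separate from *Gja1*, *Glul* from *Aldoc*, *Aldoc* from *Gjb6*, or *Aldh1l1* from *S100b*. The gaps on either side of *Slc1a2* were larger than the spread between the mice.

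**Figure D1:**
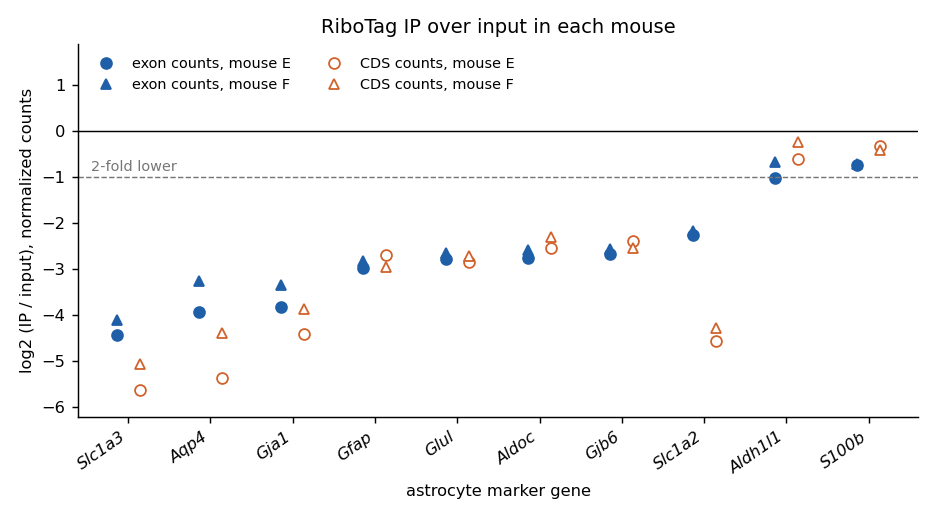
The log2 ratio of IP to input (vertical axis, normalized counts) is plotted for each astrocyte marker (horizontal axis) in mouse E (circles) and mouse F (triangles), from exon counts (filled) and CDS counts (open), with a dashed line at a 2-fold decrease. *Aldh1l1* and *S100b* lie near or above the dashed line, and *Slc1a2* lies at −2.25 and −2.17 on exon counts and at −4.55 and −4.28 on CDS counts.

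The size of the depletion depended on which part of the gene was counted, most of all for *Slc1a2*. On CDS counts, *Slc1a2* had 7115 and 8891 counts in the inputs and 153 and 195 in the IPs, and its log2 change was −4.54 in place of −2.32. In each mouse the CDS decrease, 23.5-fold and 19.4-fold, was more than 4 times the exon decrease of 4.76-fold and 4.49-fold. *Slc1a3* (−5.46), *Aqp4* (−4.93) and *Gja1* (−4.27) were also lower on CDS counts than on exon counts. The CDS counts of *Aqp4* in the IPs were 6 and 11, which limits the precision of its ratio. *S100b* (−0.49) and *Aldh1l1* (−0.55) lay closer to 0 on CDS counts, and the same 8 markers were called lower.

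The share of exon counts that fell on CDS differed between the kinds of library. In the inputs, 10.0% and 9.07% of the exon counts of *Slc1a2* were on CDS, in the IPs 1.504% and 1.46%, and in the RNA-Seq libraries of mice A to D 4.97% to 6.07%. The IPs were below every homogenate, and mice A to D lay between the IPs and the inputs. For *Slc1a3* these shares were 44.3% and 41.1% in the inputs, 14.2% and 14.8% in the IPs, and 37.6% to 41.4% in mice A to D. *S100b* moved little, from 25.8% and 24.8% in the inputs to 25.5% and 21.4% in the IPs.

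A rise of the counts outside the CDS was shared by most genes of the IP libraries. Across 9585 genes the log2 ratio of counts outside the CDS to counts on it (pseudocount 0.5) was higher in the IP than in the input of the same mouse by a median of 1.03, and the median of the 10 markers was 0.92. *Slc1a2* stood at 2.80, with 98.5% of genes below it, *Slc1a3* at 2.12 and *Aqp4* at 1.89. *S100b* stood at 0.15, with 8.97% of genes below it. Counted only outside the CDS, an alternative chosen after seeing the data, *Slc1a2* fell by 2.70 and *S100b* by 1.30. The share of all genes called lower by this alternative is not reported here. Of the 10 markers, 9 were called lower. *Aldh1l1* was the exception there, at −0.60 with an adjusted p of 0.138 (edgeR quasi-likelihood F-test, Benjamini-Hochberg adjustment, 7.30e-14 to 0.138 over its alternatives), from 69 and 80 counts in the inputs and 30 and 69 in the IPs.

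**Figure D2:**
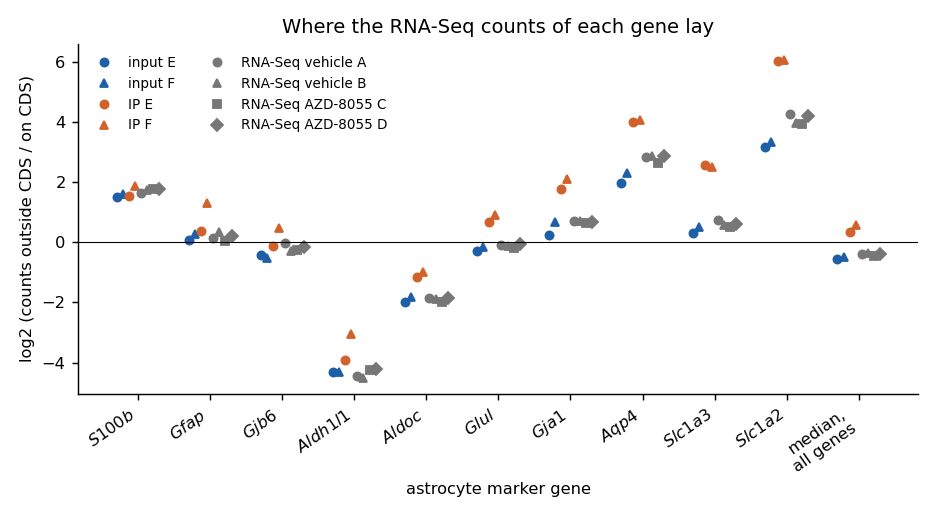
The log2 ratio of exon counts outside the CDS to counts on the CDS (vertical axis) is plotted for each marker and for the median of 9585 genes (horizontal axis), with 1 point per RNA-Seq library, blue for the inputs, orange for the IPs and grey for mice A to D. The orange points of *Slc1a2*, at 6.03 and 6.07, lie above its other 6 libraries, while those of *S100b* lie close to the rest.

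Genes of the same pathways differed in how they were depleted. Of 50 other astrocyte genes on a list, 47 were called lower, 1 higher and 2 were not called, with a median log2 change of −2.85. Of all genes tested, 11.7% were called higher. The lowest were *Slc39a12* (−3.82), a zinc transporter, *Ednrb* (−3.72), an endothelin receptor, and *Mlc1* (−3.70), a membrane protein of endfeet. The exception was the metallothionein gene *Mt3*, which rose by 1.11 on the log2 scale (SE 0.10). The 2 genes without a call were *Ttyh1* (−0.69) and *Bmpr1b* (−0.86). All 9 connexin genes tested were called lower, as were 8 of 13 genes of reactive astrocytes.

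The genes of the glutamate and glutamine cycle moved in different ways. Of 12 genes tested, 7 were called lower, among them the glutamine transporters *Slc38a3* (−3.26) and *Slc38a5* (−4.27) beside *Slc1a2*, *Slc1a3* and *Glul*. The vesicular transporter *Slc17a7* of excitatory neurons was at 0.90, short of a 2-fold change. Among 16 genes of glycolysis, *Aldoc* was the only one called lower, while 7 were called higher, including its family member *Aldoa* (1.42). In the S100 family 4 of 7 genes were called lower and 2 higher, *S100a10* (1.37) and *S100a6* (1.31). Among 8 intermediate filament genes *Gfap*, *Vim* (−2.78) and *Nes* (−2.46) were called lower and the neurofilament gene *Nefm* (1.37) higher. Of 14 genes of folate metabolism 5 were called lower, with *Gldc* lowest (−3.52), and of 7 aquaporin and dystrophin complex genes 3 were, *Aqp4*, *Agrn* (−1.504) and *Dtna* (−1.31).

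The depletion of the markers can be set beside that of the other cell types that do not drive the tag. The median log2 change was −3.21 for 10 oligodendrocyte markers, −3.07 for 8 markers of oligodendrocyte precursor cells (OPCs), −3.20 for 10 microglial markers, −3.66 for 10 endothelial markers and −2.21 for 10 markers of inhibitory neurons. The numbers called lower were 10, 8, 8, 10 and 9. The 10 excitatory neuron markers had a median of 0.98, with 5 called higher and none lower. Differences between these lists were not tested.

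**Figure D3:**
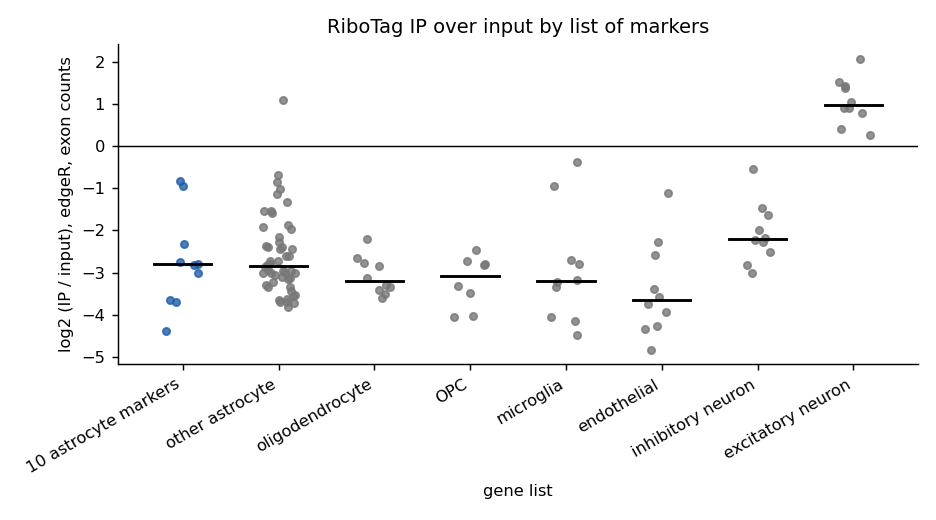
Each point is the log2 change of 1 gene between IP and input on exon counts (vertical axis), grouped by list (horizontal axis), with a bar at the median of the list and the 10 astrocyte markers in blue. The medians lie between −3.66 and −2.21 for all lists apart from the excitatory neuron markers, whose median is 0.98.

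The next comparison asked how efficiently the markers were translated in the brain without the drug. They covered a wide range. Log2 TE in the vehicle-treated mice ran from −0.66 ± 0.23 (SD, n = 2) for *Gjb6* to 3.41 ± 0.37 (SD, n = 2) for *Slc1a2*, a 16.8-fold range, whereas the SD between the mice was at most 0.42. The median of the markers was 0.47 against 0.016 for all 10882 genes with a TE, and 7 markers lay above that median and 3 below it. In edgeR's quasi-likelihood test of footprints against RNA-Seq, *Slc1a2* and *Aqp4* were called, both higher, where 13.3% of all 11891 genes tested were called higher. By the adjusted p alone 9 of the 10 markers stood off the scaling level, and 73.5% of all genes did so in one direction or the other. The scaling sets the level of the typical gene to about 0, so these values are relative to other genes.

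*Slc1a2* had the highest TE of the markers. It had 18369 and 15898 normalized footprint counts in mice A and B against 1442 and 1792 normalized RNA-Seq counts on CDS, a log2 TE of 3.67 and 3.15, and 99.9% of genes lay below its mean. The edgeR estimate was 3.45 (SE 0.10, adjusted p = 1.16e-11, quasi-likelihood F-test, Benjamini-Hochberg adjustment). Its log2 TE was far above that of *Slc1a3*, which stood at 0.83 and 0.46. *Aqp4* was second, at 2.17 and 1.58, from 733 and 536 normalized footprint counts against 163 and 179 normalized RNA-Seq counts. The values of *Aqp4* in both mice were below those of *Slc1a2* and above those of every other marker.

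The other markers lay within 2-fold of the typical gene. In mice A and B the log2 TE was 0.93 and 0.60 for *Gja1*, and in the same order it was 0.66 and 0.55 for *S100b*, 0.47 and 0.20 for *Glul*, and 0.27 and 0.041 for *Aldoc*. The 3 markers below the median of all genes were *Gfap* (−0.24 and −0.35), *Aldh1l1* (−0.20 and −0.46) and *Gjb6* (−0.50 and −0.82). The connexin genes thus lay on opposite sides of the median, with *Gja1* above *Gjb6* in both mice. Neighbours whose values overlapped between the mice were *Aldh1l1* and *Gfap*, *Aldoc* and *Glul*, *S100b* and *Slc1a3*, and *Slc1a3* and *Gja1*. All 10 markers had a higher log2 TE in mouse A than in mouse B, as did 60.1% of all genes with a TE.

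**Figure D4:**
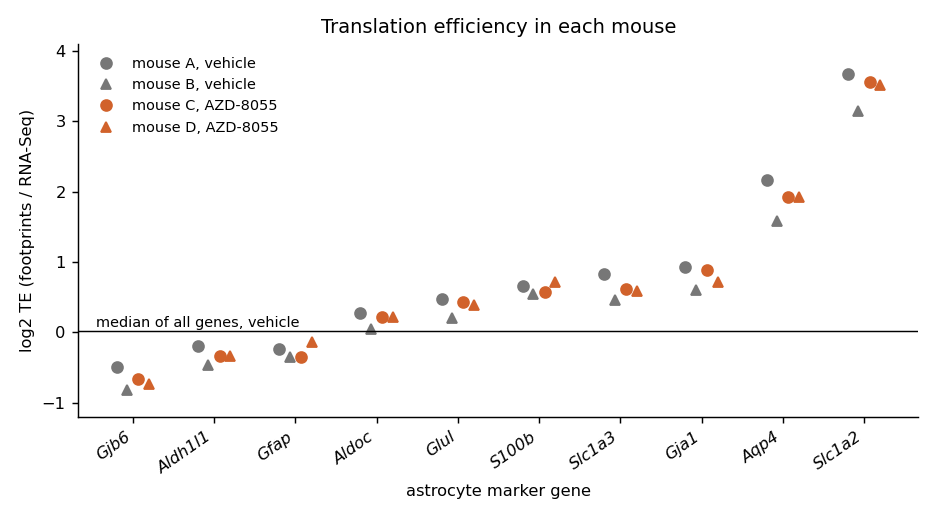
Log2 TE (vertical axis, normalized footprint counts over normalized RNA-Seq counts on CDS) is plotted for each marker (horizontal axis) in mice A and B, given vehicle (grey), and in mice C and D, given AZD-8055 (orange), with a line at the median of all genes. *Slc1a2* and *Aqp4* stand above the rest in all 4 mice, and the grey and orange points overlap for every marker.

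The RNA-Seq counts that enter the TE of *Slc1a2* differed between the sets of mice. Scaled together, its CDS level in the homogenates of mice E and F was 2.36 times that in mice A to D, and its exon level 1.41 times. The CDS level of *Aqp4* was 1.45 times that in mice A to D, and the other 8 markers lay between 0.728 and 1.00 times. The exon level of *Aqp4* was 1.01 times. From the inputs to mice A to D, the log2 ratio of counts outside the CDS to counts on it rose by a median of 0.14 over genes. It rose by 0.85 for *Slc1a2* (99.6% of genes below it) and by 0.66 for *Aqp4* (98.5%). *Gjb6* came next among the markers, at 0.30 (78.0%). Whether this shift raised the TE of *Slc1a2* and *Aqp4* was not tested. With the inputs of mice E and F as the RNA-Seq libraries, an alternative chosen after seeing the data, log2 TE was 2.08 for *Slc1a2* and 1.28 for *Aqp4*, and these remained the highest of the 10. *Gfap* was then at 0.11 in place of −0.29. These ratios set footprints of one pair of mice against RNA of another, so they carry no spread and no test.

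Most other genes of these pathways were not called in TE. Of the 49 other astrocyte genes tested, 8 were called higher and 2 lower, with a median of 0.19. The share called higher was near that of all genes, of which 13.3% were called higher and 17.5% lower. The highest were *Slc14a1* (1.53), a urea transporter, *Ednrb* (1.505) and *Slc4a4* (1.47), a bicarbonate cotransporter, and the lowest were *Grin2c* (−2.42), an NMDA receptor subunit, *Prodh* (−1.06), proline dehydrogenase, and *Ttyh1* (−0.96). In the glutamate and glutamine cycle 4 of 11 genes were called higher, among them *Slc1a2*, *Slc38a1* (1.64) and *Slc38a2* (1.36), and none lower. The intermediate filament genes had 1 of 8 called lower, *Nes* (−2.16), and the glycolysis genes 1 of 15, *Gapdh* (−1.58). The 7 genes of the S100 family ran from 0.00 (*S100a6*) to 0.64 (*S100b*), and the 7 of the reactive astrocyte list from −0.50 (*Vim*) to 0.57 (*Osmr*).

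The last comparison asked whether inhibition of mTOR for 1 h changed the RNA, the footprints or the TE of the markers. No marker was called in any of the 3. For TE, 0 of 10 passed, where 0.305% of the 11797 genes tested were called with a 2-fold change and 0.865% by the adjusted p alone. For RNA, 0 of 10 passed, against 0.148% of all genes, and for footprints 0 of 10, against 1.03% of all genes (edgeR quasi-likelihood F-test, Benjamini-Hochberg adjustment). No marker had an unadjusted p under 0.05 in any of the 3 tests either, and DESeq2 called none. With backgrounds this low, a count of 0 among 10 genes says little by itself, and the intervals say more.

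*Slc1a2* had normalized footprint counts of 18369 and 15898 with vehicle and 20677 and 16353 with AZD-8055, and normalized RNA-Seq counts of 1442 and 1792 with vehicle and 1762 and 1425 with the drug. The groups overlapped in both readouts. Its log2 TE change was 0.14 (95% interval −0.20 to 0.47), the largest of the markers. *Glul*, the marker with the narrowest interval, had a log2 TE of 0.43 and 0.39 with the drug and a change of 0.08 (95% interval −0.11 to 0.27). *Gjb6*, at −0.08, had the lowest change and the widest reach downward (95% interval −0.44 to 0.28).

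Across the 10 markers the log2 TE change lay between −0.08 and 0.14, with adjusted p from 0.914 to 0.999 by the edgeR quasi-likelihood F-test with adjustment after Benjamini-Hochberg, and the intervals between −0.44 and 0.47. A 2-fold change of TE lay outside all 10 intervals, whereas a change of 38.9% (the upper bound for *Slc1a2*) or of −26.1% (the lower bound for *Gjb6*) was the largest that an interval still held. The RNA changes lay between −0.13 (*S100b*) and 0.00 (*Gja1*), and the footprint changes between −0.09 (*Gjb6*) and 0.11 (*Slc1a2*). In TE, the values of mice A and B overlapped those of mice C and D for every marker, while they did not overlap for 37.3% of 10881 genes. With 2 mice in each group, values often fail to overlap without any effect, so that share does not measure the drug. All 10 markers were higher in mouse A than in mouse B, so their overlaps are not 10 separate results. A p that misses the threshold does not show that the values did not differ.

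The footprint result of *Slc1a2* depended on mouse D. Without mouse D its footprint change was 0.25 with an adjusted p of 4.99e-06 (edgeR quasi-likelihood F-test, Benjamini-Hochberg adjustment), and it was −0.04 without mouse C, with adjusted p from 4.99e-06 to 0.932 over its alternatives. The count over all genes was unstable in the same test, with 110 genes called from all 4 libraries, 837 without mouse C, 265 without mouse D and 64 without mouse B. In these fits 1 group holds a lone library, whose spread is assumed to be that of the other group.

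**Figure D5:**
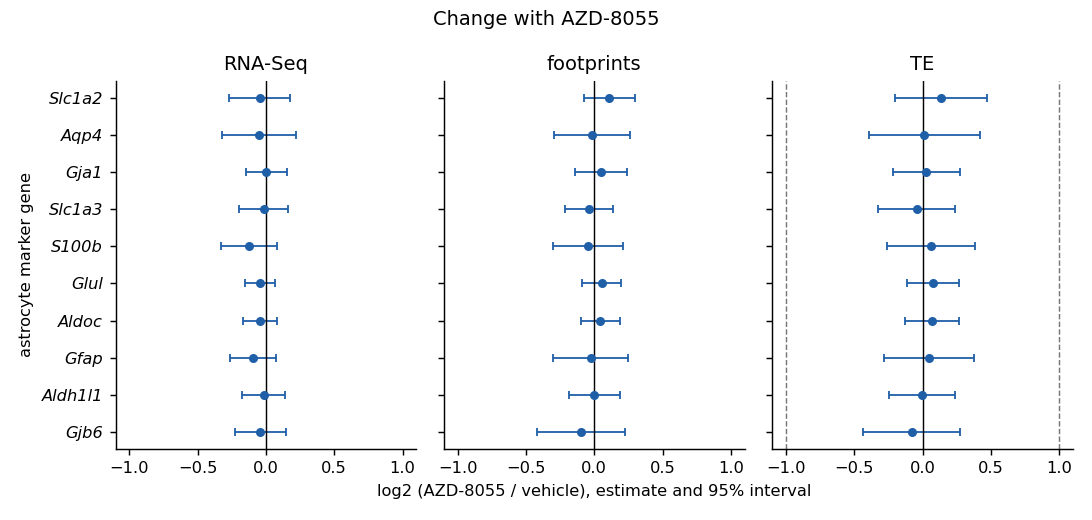
The log2 change with AZD-8055 (horizontal axis) of RNA-Seq, footprints and TE is plotted for each marker (vertical axis) as the edgeR estimate with its 95% interval, with dashed lines at a 2-fold change of TE. Every interval includes 0, and the TE intervals stay between −0.44 and 0.47.

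The same test did register changes elsewhere. Of 77 ribosomal protein genes, the best-known class of mTOR targets, 31 were called lower in TE with a median log2 change of −0.89, and *Eef1a1*, which encodes an elongation factor, was at −1.59. Among the 145 genes listed for astrocytes and their pathways, edgeR and DESeq2 called none in TE (116 tested, 4 at an unadjusted p under 0.05) or in RNA (122 tested, 18 at an unadjusted p under 0.05). Of all genes tested, 6.75% had an unadjusted p under 0.05 in TE, 8.24% in RNA and 12.8% in footprints. In footprints edgeR called 1 of 114, with 16 at an unadjusted p under 0.05, and DESeq2 called that gene and *Glud1*, a glutamate dehydrogenase (−0.34 in edgeR). The gene called by both was *Vim*, the partner of *Gfap* in astrocyte filaments, whose normalized footprint counts were 357 and 342 with vehicle and 218 and 213 with the drug. The groups did not overlap, and the footprints fell by 0.70 on the log2 scale (adjusted p = 0.0183, edgeR quasi-likelihood F-test, Benjamini-Hochberg adjustment). Its footprint change was −0.71 without mouse A (adjusted p = 0.162 in edgeR) and −0.69 without mouse B (adjusted p = 0.272), with adjusted p from 0.000227 to 0.272 over its alternatives, so that leaving out either vehicle-treated mouse ended the call. The RNA change of *Vim* was −0.06 and its TE change −0.66, which was not called (adjusted p = 0.165).

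Messages that respond to mTOR typically start with a C and a run of pyrimidines, the terminal oligopyrimidine (TOP) motif. Windows around the annotated starts are shown for *Gfap* beside its partner *Vim*, and for *Eef1a1*, 5′ to 3′ on the strand of the gene. Each runs from 10 bases before the RefSeq start (GRCm38.p6) to 20 bases from it on. Capitals mark each C followed by at least 4 pyrimidines anywhere in the window, which is a looser rule than the TOP motif.
Gfap, chr11:102897181-102897210, minus strand: gggggtgCTTCCaggaagtcaggggcagat
Vim, chr2:13574301-13574330, plus strand: ttgtccagtCCTCTgccaCTCTTgctccgg
Eef1a1, chr9:78481705-78481734, minus strand: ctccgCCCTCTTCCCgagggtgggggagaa
*Eef1a1* had the longest run of the 3. None of the marked runs began at the annotated start. Those of *Gfap* and *Eef1a1* and the earlier run of *Vim* began before it, and the later run of *Vim* after it. Whether any of them forms the 5′ end of a message, as a TOP motif does, was not tested. Starts were listed for 9 of the 10 markers in 10 windows, and 5 windows, those of *Aldh1l1*, *Aldoc*, *Gfap*, *Gja1* and *Slc1a3*, held such a run, searched on the sense strand only. The listed start of *Slc1a2* lay 48199 bases inside the annotated gene, 1 of the pair for *Aldoc* 1125 bases and that of *Aldh1l1* 25 bases inside it, and the others lay at the 5′ end of the gene. Of all 32851 windows of this length 35.8% held one, and of the 75 windows of ribosomal protein genes 61.3%. A run is a description of these letters and not a site.

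Over all 12 libraries of the CDS table, the genes whose log2 CPM was most like the mean of the 10 markers included *Ppap2b* (Pearson's r = 0.998), *Eps8*, *Acot11*, *Npc1*, *Myo6*, *Cyfip1*, *Scd2*, *Abca1* and *Sparcl1* (0.996). *Sparcl1* is on the list of other astrocyte genes. Among the markers, *Gja1* was most like the mean (0.998) and *Aldh1l1* least (0.781). The 12 libraries share mice and include the 2 IPs, which set much of the range, so these values describe the libraries only.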

How the data were processed

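Brain tissue of 6 mice gave 12 libraries, 8 of RNA-Seq and 4 of ribosome footprints. The authors trimmed footprint reads, removed rRNA reads with Bowtie2, aligned with TopHat2 to mm10 and counted with HTSeq, and they deposited whole-number counts per gene on CDS (12 libraries) and on exons (8 RNA-Seq libraries), without normalization. Versions and the annotation are not given in the sources used here. Groups and mice were taken from the sample labels. The 27 entries whose symbols had turned into dates held at most 0.415% of a library.

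Genes whose counts averaged 37 or more per library were tested in R 4.3.3 with edgeR 4.0.16 (TMM, quasi-likelihood F-test, Benjamini-Hochberg adjustment over all genes tested, threshold 0.05). Calls for IP, TE change and TE level also needed a 2-fold change. TE change was the interaction of assay and treatment, since the RiboDiff program of the study was not used here. Levels, TE and IP ratios per mouse are counts divided by size factors of DESeq2 1.42.0, with at least 75 counts per assay over both mice for TE. Counts outside the CDS are exon counts minus CDS counts. Lists and figures used Python 3.11.15, numpy 2.4.6, pandas 2.3.3 and matplotlib 3.10.9.

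The 10 markers and the lists were chosen with earlier results of these data known. The genes named are the 10 markers, genes of the pathway lists, the extremes of the lists of astrocyte genes, the 10 genes most like the markers, and *Eef1a1* and *Vim* as references. Not all genes under these rules are reported here.

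Libraries of one mouse are paired by design. The main fits for IP, TE change and TE level left this pairing out, and the mouse entered only as an alternative. As a check, the log2 difference between both mice of a group was correlated over genes between the 2 kinds of library, at 0.243 for mice A and B (10169 genes), 0.197 for C and D (9365 genes) and 0.548 for E and F (11712 genes). Genes are not independent replicates. The alternatives were DESeq2, other scalings, no filter, the mouse as a replicate block, the other table, no limit on the fold change and leaving out each mouse.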

Additional observations from a re-analysis of the deposited data

How the results depend on the processing

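No called marker value changed direction under any alternative, and the 8 markers called lower in the IP and the 2 with a called TE stayed called in each. With total counts or no limit on the fold change all 10 markers were called in the IP, with counts outside the CDS 9. Total counts moved the median of all genes by −0.28 in the IP and by −0.14 in TE level, and the median IP ratio of the markers from −2.69 to −3.08 (−2.80 on CDS counts). The median IP change of the markers relative to all genes was −2.77, −2.54 with no count filter and −2.90 outside the CDS. Genes called lower in the IP numbered 2888, 1690 outside the CDS and 4731 with no limit on the fold change. For TE level, 9 markers passed with no limit on the fold change, where 4349 genes in place of 1587 were called higher. With no count filter 2946 were, and the median of the markers, less that of all genes, was 0.18 (0.52 with the filter). With the mouse as a replicate block the numbers of markers called were the same, 8 in the IP (2916 genes called lower), 0 in TE change (43 genes called, 36 without it) and 2 in TE level (1588 genes called higher). *Gfap* had an adjusted p of 0.0549 for TE level and 0.00200 with the block (edgeR, 0.00200 to 0.130 over its alternatives), short of a 2-fold change. Genes called for TE change numbered 57 with no count filter and 102 with no limit on the fold change. For RNA, 18 genes were called, 28 with DESeq2, 29 with total counts and 78 with no count filter, and for footprints 110, and 264 with no count filter. Leaving out each mouse gave 27 to 39 genes for TE change, 13 to 36 for RNA and 64 to 837 for footprints, and 0 to 1 marker for footprints. The medians of the markers relative to all genes then lay between −0.10 and 0.15 for TE change and between −0.033 and 0.10 for footprints. For the IP and TE level, leaving out a mouse leaves 1 library in each group and no test, and the medians per mouse were −2.76 and −2.61 for log2 IP enrichment and 0.56 and 0.33 for log2 TE. Of 321 marker values without a call, 49 had the other sign under an alternative. The cause of these differences was not tested. Counting error is largest for the CDS ratio of *Aqp4* in the IP, which rests on 6 and 11 counts.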
